A study of Mus musculus with 33 samples.

Results

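CD127 is the α chain of the IL-7 receptor, encoded by Il7r, and Foxp3 is the transcription factor that defines regulatory T cells (Tregs). Tregs restrain immune responses and depend mainly on IL-2, which signals through the common gamma chain, JAK1, JAK3 and STAT5. IL-7 uses the same chain and the same STAT5 pathway, supports the survival of naive and memory T cells, and is received only poorly by most Tregs, whose surface CD127 is low.

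The comparison described here was that of CD127hi Tregs with CD127-/lo Tregs of the graft-draining lymph node (DLN), which the labels call the kidney lymph node. It rests on 6 of the 33 RNA-Seq libraries of the series, 3 of each subset, which were chosen by their titles, and all genes were tested. Both subsets came from DEREG mice, which carry on a C57BL/6 background a transgene of the diphtheria toxin receptor and EGFP driven by the Foxp3 promoter, so that GFP marks Foxp3+ cells. Both came from tolerant mice at day 100 after transplantation of 4000 islet equivalents of porcine neonatal islet cell clusters under the renal capsule. These mice had received CTLA4-Fc and MR-1, a blocking antibody to CD154, at 500 µg per mouse for each dose, within the first week. Live CD4+GFP+ cells were sorted by their CD127 staining, and cDNA was amplified directly from a low number of sorted cells. The study describes each sample as a pool of mice and the tolerant mice as coming from independent transplant experiments, but the labels do not say which mice or experiment a sample came from, and no label ties a replicate of one subset to a replicate of the other.

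The 6 libraries held 844039 to 1935323 counts on genes (median 1063373), and 10784 to 19525 genes had at least 1 count. Replicate 3 of each subset had the fewest genes, 10784 in DLN/CD127-/lo and 11126 in DLN/CD127hi Tregs, while the other 4 libraries had 16583 to 19525. A count of 3 in a library corresponded to 1.55 to 3.55 CPM, the share of a library's counts scaled to a common total. The Spearman correlation between libraries across genes had a median of 0.620 over the 6 pairs within a subset and of 0.623 over the 9 pairs between subsets, so that libraries of a subset were no more alike than libraries of different subsets. Such correlations are across genes, which are not independent replicates. Levels below are in CPM scaled by TMM factors, given for replicates 1, 2 and 3 in that order.

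The sort was examined first through the RNA of its own markers. Il7r (on chromosome 15 of GRCm38 from 9505788 to 9530176) was at 265, 784 and 516 CPM in DLN/CD127-/lo and at 635, 476 and 678 CPM in DLN/CD127hi Tregs. The ranges overlapped, and the log2 fold change of CD127hi over CD127-/lo was 0.19 (SE 0.36; adjusted p = 0.972, quasi-likelihood test of edgeR, Benjamini-Hochberg adjusted). In the spleen of tolerant mice the same sort gave 311 ± 45.6 CPM in CD127-/lo and 1172 ± 80.0 CPM in CD127hi Tregs (SD, n = 3 each). The Il7r log2 fold change of the DLN minus that of the spleen was -1.72 (SE 0.51) and did not pass the threshold (adjusted p = 0.181). The Il7r levels of the subsets sorted on CD127 protein thus overlapped in the DLN and lay apart in the spleen, while the difference between the tissues itself missed the threshold.

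Foxp3 was at 166, 249 and 202 CPM in DLN/CD127-/lo and at 246, 272 and 259 CPM in DLN/CD127hi Tregs (log2 fold change 0.33, SE 0.55, adjusted p = 0.954). EGFP of the transgene was at 1.64, 14.9 and 80.1 CPM and 36.0, 29.9 and 5.18 CPM (log2 fold change -0.44, SE 1.10, adjusted p = 1). In splenic CD45+CD4- cells of tolerant mice, which should lack Foxp3, the Foxp3 mean was 0.501 CPM. Foxp3 RNA was thus well above that level in all 6 libraries, as the Treg label requires, whereas EGFP ranged widely within each subset.

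**Figure D1:**
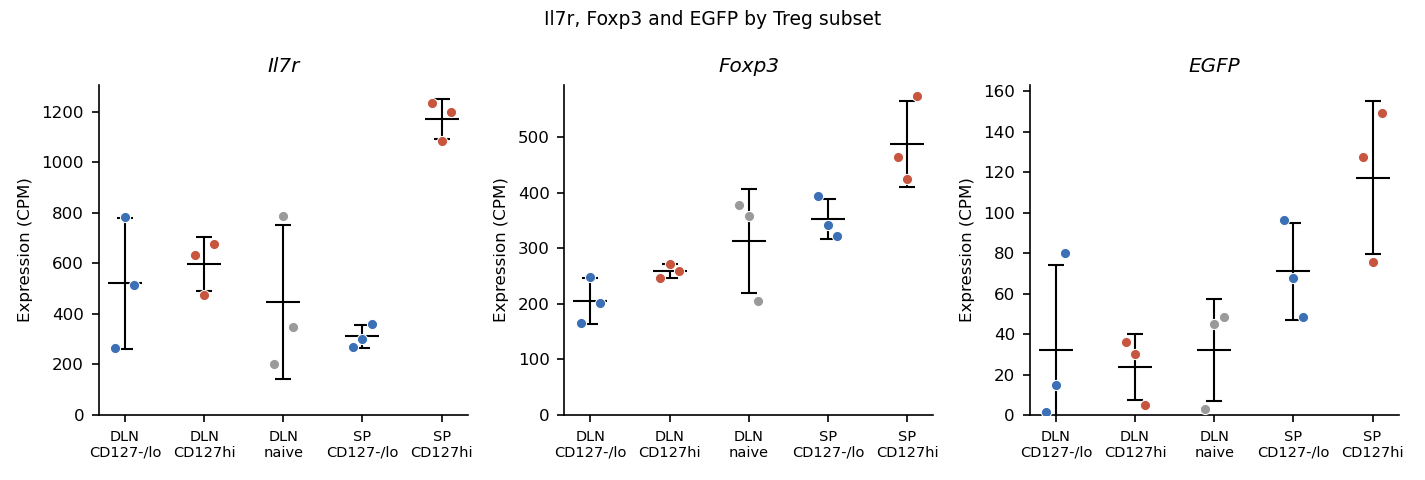
Levels of Il7r, Foxp3 and EGFP in CPM (y axes) in each library (points) of DLN and splenic (SP) Treg subsets, with the mean and SD (horizontal mark and bars, n = 3). The Il7r points of both DLN subsets of tolerant mice overlap, at 265, 784 and 516 CPM in CD127-/lo and 635, 476 and 678 CPM in CD127hi, while those of the splenic subsets lie apart.

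Between the subsets, 106 of 25347 genes tested were differentially expressed genes (DEGs, adjusted p under 0.05), which is 0.418% of the genes. In DLN/CD127hi Tregs 56 DEGs were higher (0.221%) and 50 were lower (0.197%). Without adjustment 2219 genes had a p under 0.05, of which 1056 were higher in DLN/CD127hi Tregs (4.17%). This model covered all 33 libraries and shares 1 estimate of the spread among them, and the DLN libraries varied more than that estimate. The common dispersion, the squared coefficient of variation between libraries beyond counting error, was 1.01 over all libraries, 0.785 over the 9 splenic Treg libraries, 1.47 over the 9 DLN libraries and 1.45 over the 6 compared. Any single DEG called by the model of all libraries alone may be a false call. A model of the 9 DLN libraries alone called 9 genes (0.0371% of 24230) and a model of the 6 compared libraries alone called 10 (0.0418% of 23938). The 7 genes called in all 3 models were Ly6d, Igkc, Iglc2, Jchain, Igkv8-30 and Igkv6-32, which were higher in DLN/CD127hi Tregs, and Malat1, which was lower. The models of fewer libraries also called Ccl8 and Gm10800, which the model of all libraries did not, and the model of the 6 libraries also called Ighg2b. Every other DEG below was called in the model of all libraries and not in those of the DLN libraries alone. The p-values measure the spread between these pooled samples, which may be technical in part.

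Many DEGs rested on few reads. Of the 56 higher DEGs, 13 had no count in any DLN/CD127-/lo library, 25 had at most 3 counts there in all, and 6 had more than 3 counts in only 1 DLN/CD127hi library. Those 6 were Igkv8-30, Igkv6-32, S100a8 and Cd8a, from DLN/CD127hi replicate 1, Pde3b from replicate 2 and Iglv3 from replicate 3. Of the 50 lower DEGs, 20 had at most 3 counts in DLN/CD127hi Tregs in all. The libraries of the subsets did not overlap in 37 of the 56 higher and in 36 of the 50 lower DEGs, beside 2.26% (higher) and 3.11% (lower) of all genes tested. The DEGs were called on these same libraries, so that a larger share among them follows from the selection. Of the 106 DEGs, 26 were called whichever of the 6 libraries was left out, 89 were also called by the likelihood ratio test and 92 by DESeq2, which gave no adjusted p for Cd8a. By type 97 of the DEGs were protein-coding genes and 8 were immunoglobulin genes. The latter were all higher in DLN/CD127hi Tregs, beside 0.221% higher DEGs among all genes. Immunoglobulin genes tested included 122 κ, 3 λ and 101 heavy chain variable segments.

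**Figure D2:**
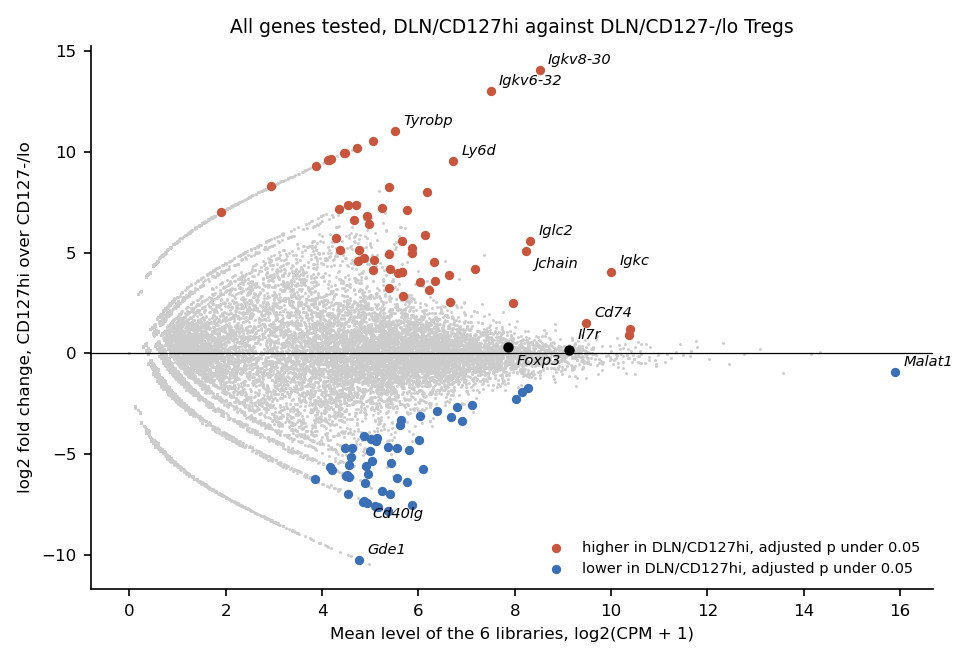
The log2 fold change of DLN/CD127hi over DLN/CD127-/lo Tregs (y axis) against the mean level of the 6 libraries, log2(CPM + 1) (x axis), for all 25347 genes tested. The 56 DEGs that were higher are red, the 50 that were lower are blue, and Il7r and Foxp3 (black) lie near 0. The curved lines of points are genes with reads in few libraries.

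Among the higher genes called in every model, Ly6d was present in all DLN/CD127hi libraries and nearly absent from DLN/CD127-/lo Tregs. Ly6d encodes a small GPI-anchored protein of the Ly6 family that marks B lineage commitment and is also carried by plasmacytoid dendritic cells. On chromosome 15 (GRCm38, 74762056 to 74763620), Ly6d was at 0.545, 0 and 0 CPM in DLN/CD127-/lo Tregs, which is 1 read in all, and at 246, 314 and 69.5 CPM in DLN/CD127hi Tregs, which is 718 reads. All DLN/CD127hi libraries were far above all DLN/CD127-/lo libraries. The log2 fold change of Ly6d was 9.55 (SE 1.17, adjusted p = 1.68e-10), and the ratio of its depth-corrected counts was 894, with a 95% exact (Clopper-Pearson) interval from 160.0 to 35376 that covers counting error only. Ly6d stayed called when any 1 of the 6 libraries was left out, with a log2 fold change from 9.16 to 12.41, the latter without DLN/CD127-/lo replicate 1. In DLN/naive Tregs, from mice without graft or treatment, Ly6d was at 36.9, 0 and 45.9 CPM, and in the splenic CD127hi Tregs of tolerant mice at 0, 0 and 3.18 CPM. Ly6d in splenic CD45+CD4- cells averaged 1206 CPM, so that DLN/CD127hi Tregs had 17.4% of that level.

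Immunoglobulin genes made up most of the genes called in every model. Igkc, the constant region of the κ light chain (Igkc, chromosome 6, 70726435 to 70726966), was at 15.8, 201 and 130.0 CPM in DLN/CD127-/lo and at 4607, 620.2 and 546 CPM in DLN/CD127hi Tregs. The Igkc log2 fold change was 4.06 (SE 0.43, adjusted p = 1.17e-13). DLN/CD127hi replicate 1 stood well above the other 2 replicates, and without it the Igkc log2 fold change was 2.34 and still called, while without DLN/CD127-/lo replicate 2 it was 4.86. Iglc2, a constant region of the λ light chain, was at 0, 37.8 and 2.45 CPM and 319, 1266 and 283 CPM (5.59 on the log2 scale, SE 0.81, adjusted p = 1.99e-07), with the highest value in another library, replicate 2. Without DLN/CD127-/lo replicate 2 its log2 fold change was 9.23, and without DLN/CD127hi replicate 2 it was 4.51. The likelihood ratio test also called Iglc2 and DESeq2 did not (adjusted p = 0.0293 and 0.133). Iglc1 was at 0, 0 and 17.2 CPM and 162, 117 and 0 CPM, overlapped, and was a DEG (adjusted p = 0.0322) that lost its call without DLN/CD127-/lo replicate 2 (adjusted p = 0.305) or DLN/CD127hi replicate 1 (0.21), with the likelihood ratio test (0.244) and with DESeq2 (0.492). Light chain genes have near-identical copies between which reads can be split, so that the share of each copy is uncertain.

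Variable segments of the κ chain showed how each library's immunoglobulin reads were composed. Igkv8-30 was listed at 0 in all of the 6 compared libraries but DLN/CD127hi replicate 1, where it had 2193 CPM, and Igkv6-32 likewise was present in that library alone at 1079 CPM, so that without it neither gene had a read in any of the 5 other libraries. In splenic CD45+CD4- cells Igkv8-30 averaged 18.7 CPM and Igkv6-32 32.2 CPM. Summed over the 122 κ segments tested, the DLN/CD127hi libraries had 3466, 273 and 252 CPM and the DLN/CD127-/lo libraries 40.9, 59.7 and 22.9 CPM. In DLN/CD127hi replicate 1, Igkv8-30 alone made up 63.3% of that sum. In replicate 2 as many as 14 segments had more than 3 counts and the leading one, Igkv3-4, made up 11.8%. In replicate 3 there were 5 such segments, and the leading Igkv3-5 made up 30.9%. The DLN/CD127-/lo libraries had 1 or 2 such segments each. The summed κ segments were thus higher in every DLN/CD127hi than in every DLN/CD127-/lo library, with a different leading segment in each DLN/CD127hi library, 1 of them dominant in replicate 1. In DLN/naive Tregs the κ sums were 78.8, 80.6 and 252 CPM, the last as high as in DLN/CD127hi replicate 3. Igkc was at 146, 157 and 446 CPM in these naive libraries. The 3 λ segments summed to 126, 514 and 224 CPM in DLN/CD127hi Tregs against 0.545, 62.7 and 0 CPM. The 101 heavy chain segments overlapped, with 93.4, 7.09 and 29.0 CPM in DLN/CD127hi against 20.2, 96.6 and 12.3 CPM in DLN/CD127-/lo Tregs.

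Jchain, which joins polymeric IgA and IgM in plasma cells, was at 0, 0.996 and 50.7 CPM in DLN/CD127-/lo and 1388, 239 and 122 CPM in DLN/CD127hi Tregs (5.09 on the log2 scale, SE 0.88, adjusted p = 4.39e-05). The Jchain libraries did not overlap, but the call was lost without DLN/CD127hi replicate 1 (adjusted p = 0.102) or DLN/CD127-/lo replicate 2 (0.0652), and neither the likelihood ratio test (0.0614) nor DESeq2 (0.186) called it. With 1 library left out its log2 fold change ranged from 3.40 without DLN/CD127hi replicate 1 to 10.53 without DLN/CD127-/lo replicate 3. In DLN/naive Tregs Jchain was at 0, 106 and 185 CPM, which overlapped with DLN/CD127hi Tregs. Ighg2b, the constant region of IgG2b, was at 419.5, 4.73 and 0 CPM in DLN/CD127hi Tregs and under 1 CPM in each DLN/CD127-/lo library (adjusted p = 0.0211), and this call was lost without DLN/CD127hi replicate 1 (adjusted p = 0.75), DLN/CD127-/lo replicate 2 (0.0644) or DLN/CD127-/lo replicate 3 (0.0531). These were the DEGs among 12 plasma cell markers, beside 0.221% higher DEGs among all genes, and none was lower. Of the 12 markers 7 had a log2 fold change above 0 and 5 below. Other markers of that list did not pass the test: Mzb1, a chaperone of antibody assembly, was at 0, 0 and 81.8 CPM and 35.0, 52.0 and 19.7 CPM, and Sdc1, the plasma cell surface marker CD138, did not exceed 11 CPM in any of the 6 libraries. The summed level of the list was 120.5, 116 and 364 CPM in DLN/CD127-/lo and 2064, 458 and 222 CPM in DLN/CD127hi Tregs (exact permutation p = 0.2, two-sided, with 0.1 the smallest p that 3 libraries against 3 can give). The log2 ratio of the mean sums was 2.19, and 0.76 without DLN/CD127hi replicate 1.

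Of 33 B cell markers tested, 7 were DEGs and higher in DLN/CD127hi Tregs and none was lower, which compares with 0.221% higher DEGs among all genes. They were Ly6d, Igkc, Iglc1 and Iglc2, described above, with Fcmr, Blk and Mef2c. Fcmr, the Fc receptor for IgM, was at 0 in all DLN/CD127-/lo libraries and at 12.7, 112 and 1.04 CPM in DLN/CD127hi Tregs, at least 56.7-fold higher against a floor of 3 counts over the group (adjusted p = 0.000366). The fitted log2 fold change of Fcmr was 9.94, and 7.52 without DLN/CD127hi replicate 2. Blk, a Src family kinase of B cells, was at 0.545, 5.97 and 0 CPM and 16.5, 54.4 and 91.2 CPM (adjusted p = 0.0393), and lost its call without DLN/CD127-/lo replicates 1 or 3 (adjusted p = 0.154 and 0.158) or DLN/CD127hi replicate 3 (0.0838). Mef2c, a transcription factor of B cells and myeloid cells, was at 13.1, 7.96 and 1.64 CPM and 41.9, 156 and 24.9 CPM (adjusted p = 0.0236), and lost its call without DLN/CD127-/lo replicates 2 or 3 (adjusted p = 0.116 and 0.0734) or DLN/CD127hi replicate 2 (0.189), with the likelihood ratio test (0.084) and with DESeq2 (0.0894). The models of the 9 and of the 6 libraries called 3 of the 33, namely Ly6d, Igkc and Iglc2.

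Surface proteins that define B cells include CD20 and the chains of the B cell receptor. Ms4a1, which encodes CD20, was at 1.09, 45.8 and 37.6 CPM in DLN/CD127-/lo and 13.6, 19.7 and 2.07 CPM in DLN/CD127hi Tregs (adjusted p = 0.658), and Cd79a, a signalling chain of the B cell receptor, was at 0, 0.996 and 40.9 CPM and 44.8, 42.6 and 0 CPM (adjusted p = 0.761). Neither gene passed the test, both were present in libraries of both subsets, and their ranges overlapped. In the spleen the Ms4a1 log2 fold change was 7.56, from 0.0839 ± 0.145 CPM in CD127-/lo to 25.0 ± 34.3 CPM in CD127hi Tregs (SD, n = 3 each). The SD of the latter exceeded its mean. The DLN minus spleen difference of -8.78 (SE 1.25) passed the test (adjusted p = 1.09e-07), in the direction opposite to the B cell markers Igkc, Ly6d and Fcmr. Cd79b, the partner of Cd79a, did not overlap, with 74.7, 12.9 and 0 CPM and 199, 135 and 119 CPM, and did not pass the test (log2 fold change 2.35, SE 0.80, adjusted p = 0.209). Ighm, the constant region of IgM, overlapped, with 1345, 1027 and 548 CPM and 1185, 1215 and 813 CPM.

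The whole list had a median log2 fold change of 1.55, beside -0.01 over all genes tested, and 27 of its 33 members were above 0. Its summed level was 1672, 2477 and 1179 CPM in DLN/CD127-/lo and 8237, 5330 and 2355 CPM in DLN/CD127hi Tregs, a ratio of 2.99 that overlapped between subsets (exact permutation p = 0.2, two-sided). As a share of the level in splenic CD45+CD4- cells of tolerant mice, a population that holds B cells, the 33 markers ran from 0.168% (Fcrla) to 58.9% (Cd72) in DLN/CD127hi Tregs with a median of 5.51%, and from 0% to 26.4% with a median of 1.88% in DLN/CD127-/lo Tregs. In DLN/CD127hi Tregs 14 of the 33 were over 10% of that level and 15 were under 5%, among them Ms4a1 at 0.728%, while Igkc was at 31.3% and Iglc2 at 26.6%. Cd72 was also at 33.6% in DLN/naive Tregs. All shares of this kind set DLN libraries beside splenic libraries that were run on another sequencer, so that they are only descriptions. The part that B lineage RNA had in the differences was not tested. In bulk libraries a change in the number of cells of a type and a change in RNA per cell cannot be told apart.

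**Figure D3:**
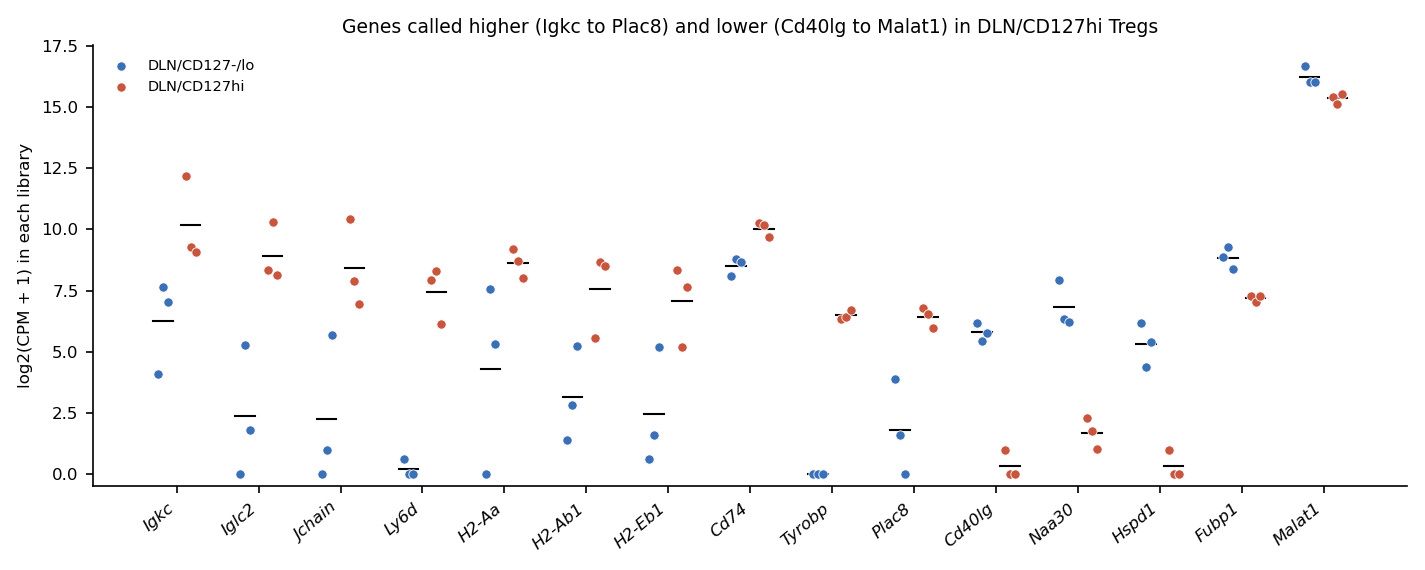
Levels of 15 DEGs as log2(CPM + 1) (y axis) in each DLN/CD127-/lo (blue) and DLN/CD127hi (red) library, with the mean of the log2 values as a bar. The 10 genes on the left, from Igkc to Plac8, were higher in DLN/CD127hi Tregs, and the 5 on the right, from Cd40lg to Malat1, were lower, and in none of the 15 do the libraries overlap.

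MHC class II molecules present peptides to CD4+ T cells and are expressed mainly by B cells, dendritic cells and macrophages. Their genes share a promoter module that includes an inverted CCAAT element called the Y box. The promoters of H2-Aa and H2-Eb1, of which both genes were DEGs, are shown because the class II genes were called together. Each sequence gives the 120 bases before the transcription start in the gene's own direction, from RefSeq on GRCm38.p6, with a match to the Y box letters CTGATTGG in capitals. The match begins 51 bases before the start in H2-Aa (chr17:34287824-34287943, minus strand) and 62 bases before the start in H2-Eb1 (chr17:34305747-34305866, plus strand).
H2-Aa: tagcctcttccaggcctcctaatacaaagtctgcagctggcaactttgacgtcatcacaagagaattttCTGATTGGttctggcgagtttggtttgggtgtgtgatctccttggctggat
H2-Eb1: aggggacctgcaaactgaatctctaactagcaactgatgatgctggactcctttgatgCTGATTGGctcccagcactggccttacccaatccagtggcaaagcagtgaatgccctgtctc
Searched on both strands in the 250 bases before the start, these 8 letters were found in 3.83% of 32851 promoters, so that a match is a description of the sequence and not a measured site.

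Of 13 class II presentation genes tested, 4 were higher in DLN/CD127hi Tregs, beside 0.221% of all genes, and none was lower. H2-Ab1, the β chain of the I-A molecule, was at 1.64, 5.97 and 36.8 CPM in DLN/CD127-/lo and 46.7, 404 and 365 CPM in DLN/CD127hi Tregs (log2 fold change 4.21, SE 0.75, adjusted p = 0.000115). H2-Eb1, the β chain of I-E, was at 0.545, 1.99 and 35.2 CPM and 323, 35.5 and 198 CPM (3.89, SE 0.80, adjusted p = 0.00217), where the highest CD127-/lo and the lowest CD127hi library nearly met. H2-Aa, the α chain of I-A, was at 0, 186 and 38.4 CPM and 585, 422 and 255 CPM (2.50, SE 0.66, adjusted p = 0.0445). Cd74, the invariant chain that escorts class II molecules, was present in every library, at 269.8, 438 and 411 CPM and 1213, 1151 and 818 CPM (1.51, SE 0.39, adjusted p = 0.0355). None of the 4 was called when only the DLN libraries were modelled; for H2-Ab1 the adjusted p in the model of the 6 libraries was 0.0544.

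The likelihood ratio test and DESeq2 called H2-Eb1 (adjusted p = 0.0435 and 0.0406) and not H2-Ab1 (0.0506 and 0.0677), H2-Aa (0.388 and 0.408) or Cd74 (0.354 and 0.144). Single libraries decided each of these calls. That of H2-Ab1 was lost without DLN/CD127-/lo replicate 2 (adjusted p = 0.0657) and that of H2-Aa without DLN/CD127hi replicate 1 (0.274). The call of H2-Eb1 was lost without either of those libraries (adjusted p = 0.103 and 0.0647), and that of Cd74 without either of them or DLN/CD127-/lo replicate 1 (0.0905, 0.145 and 0.0778). With 1 library left out, the log2 fold change of H2-Ab1 ranged from 3.68 to 6.21 and that of H2-Eb1 from 3.22 to 7.33, both highest without DLN/CD127-/lo replicate 3. That of H2-Aa ranged from 1.89 without DLN/CD127-/lo replicate 1 to 4.58 without DLN/CD127-/lo replicate 2. Ciita, the master regulator of class II transcription, was not higher with its targets, at 3.27, 27.9 and 51.5 CPM in DLN/CD127-/lo and 18.5, 3.15 and 1.04 CPM in DLN/CD127hi Tregs (log2 fold change -1.86, SE 1.15, adjusted p = 0.689). The list summed to 1146, 912 and 2019 CPM in DLN/CD127-/lo and 2993, 3466 and 2421 CPM in DLN/CD127hi Tregs, with no overlap, a ratio of 2.18 and a median log2 fold change of 0.56 (exact permutation p = 0.1, two-sided, the smallest possible). The part of B cells and myeloid cells in the difference was not tested. As a share of splenic CD45+CD4- cells, DLN/CD127hi Tregs had 17.5% of H2-Ab1, 18.8% of H2-Aa, 22.7% of H2-Eb1 and 30.5% of Cd74.

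Markers of macrophages, monocytes and dendritic cells gave 2 higher and no lower DEGs among 30 tested, beside 0.221% higher DEGs among all genes. Tyrobp, the adaptor DAP12 of activating receptors on myeloid and NK cells, had no read in any DLN/CD127-/lo library and 78.8, 84.3 and 105 CPM in DLN/CD127hi Tregs, at least 121-fold higher against a floor of 3 counts over the group (adjusted p = 5.71e-07). The Tyrobp values of the DLN/CD127hi libraries were close to each other, and the gene stayed called whichever library was left out. It was not called in the models of the 9 and the 6 libraries (adjusted p = 0.182 and 0.0762). S100a8, a neutrophil and monocyte alarmin, was present in DLN/CD127hi replicate 1 only, at 16.5 CPM, and its call (adjusted p = 0.0112) was lost without that library or without DLN/CD127-/lo replicate 2 (0.0677), and DESeq2 did not make it (0.704). Lyz2, the lysozyme of myeloid cells, was at 112, 611 and 16.4 CPM and 535, 757 and 716 CPM (adjusted p = 0.596), and Itgam, which encodes CD11b, had no read in any of the 6 libraries. The list summed to 286, 1188 and 586 CPM in DLN/CD127-/lo and 1991, 2446 and 1414 CPM in DLN/CD127hi Tregs, with no overlap and a ratio of 2.84 (exact permutation p = 0.1, two-sided). The log2 of that ratio was 1.51, and 2.16 without DLN/CD127-/lo replicate 2. Ccl8, a monocyte-attracting chemokine of macrophages, did not overlap either, at 0.545, 31.9 and 0 CPM and 320.2, 582 and 43.5 CPM. Ccl8 missed the threshold in the model of all libraries (log2 fold change 4.89, SE 1.42, adjusted p = 0.0962) and passed it in those of the 9 and 6 libraries (adjusted p = 0.0377 and 0.000625).

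Lists of other cell types held at most 2 DEGs each. Among 13 markers of plasmacytoid dendritic cells, Ly6d and Plac8 were higher, beside 0.221% of all genes. Plac8, a small cysteine-rich protein of immune and epithelial cells, was at 13.6, 1.99 and 0 CPM in DLN/CD127-/lo and 110.0, 92.2 and 62.2 CPM in DLN/CD127hi Tregs (log2 fold change 3.98, SE 0.82, adjusted p = 0.00199, and 0.0883 without DLN/CD127-/lo replicate 2). Without DLN/CD127-/lo replicate 1 its log2 fold change was 6.52. Of the 13 markers 7 had a log2 fold change above 0 and 6 below, with a median of 0.36. In 2 the libraries did not overlap and were lower in value, beside 3.11% of all genes, without passing the test, namely Ccr9, a gut-homing chemokine receptor (43.6, 58.7 and 60.5 and 7.79, 8.67 and 13.5 CPM, adjusted p = 0.65), and Pacsin1 (27.3, 22.9 and 19.6 and 16.5, 3.94 and 10.4 CPM, adjusted p = 0.818). Siglech, a defining marker of those cells, had at most 3.98 CPM in any of the 6 libraries. That list summed to 123, 194 and 149.6 CPM in DLN/CD127-/lo and 709.6, 474 and 313 CPM in DLN/CD127hi Tregs (ratio 3.21, exact permutation p = 0.1, two-sided), and Ly6d, with a mean of 209.8 CPM, and Plac8, with 88.1 CPM, made up much of the latter. Among 18 NK and innate lymphoid markers, beside the same 0.221%, Tyrobp and the inhibitory receptor Klrc1 were higher, the latter at 7.79, 91.4 and 0 CPM against 0 (adjusted p = 0.0339). Klrc1 lost its call without any of the 3 DLN/CD127-/lo libraries (0.103, 0.11 and 0.0809) or without DLN/CD127hi replicate 2 (0.3). The NK list summed to 448, 303 and 626 CPM in DLN/CD127-/lo and 1198, 669.9 and 527 CPM in DLN/CD127hi Tregs (ratio 1.74, exact permutation p = 0.2, two-sided). Cd8a, of cytotoxic T cells, was at 144, 0.788 and 1.04 CPM in DLN/CD127hi Tregs and at most 1.09 CPM in DLN/CD127-/lo Tregs (adjusted p = 0.013), and without DLN/CD127hi replicate 1 its adjusted p was 0.949. Without DLN/CD127-/lo replicate 2 it was 0.116. The other CD8 marker, Cd8b1, was not a DEG (adjusted p = 0.111), and the pair summed to 10.4, 1.99 and 0 CPM in DLN/CD127-/lo and 186, 1.58 and 120.3 CPM in DLN/CD127hi Tregs (exact permutation p = 0.3, two-sided). Markers of lymph node stroma (12 tested, sums 52.3, 153 and 67.9 CPM against 132, 85.9 and 36.3 CPM in DLN/CD127hi Tregs) and of erythrocytes and platelets (7 tested, sums 2.73, 4.98 and 1.64 CPM against 24.3, 3.15 and 5.18 CPM in DLN/CD127hi Tregs) gave no DEG.

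**Figure D4:**
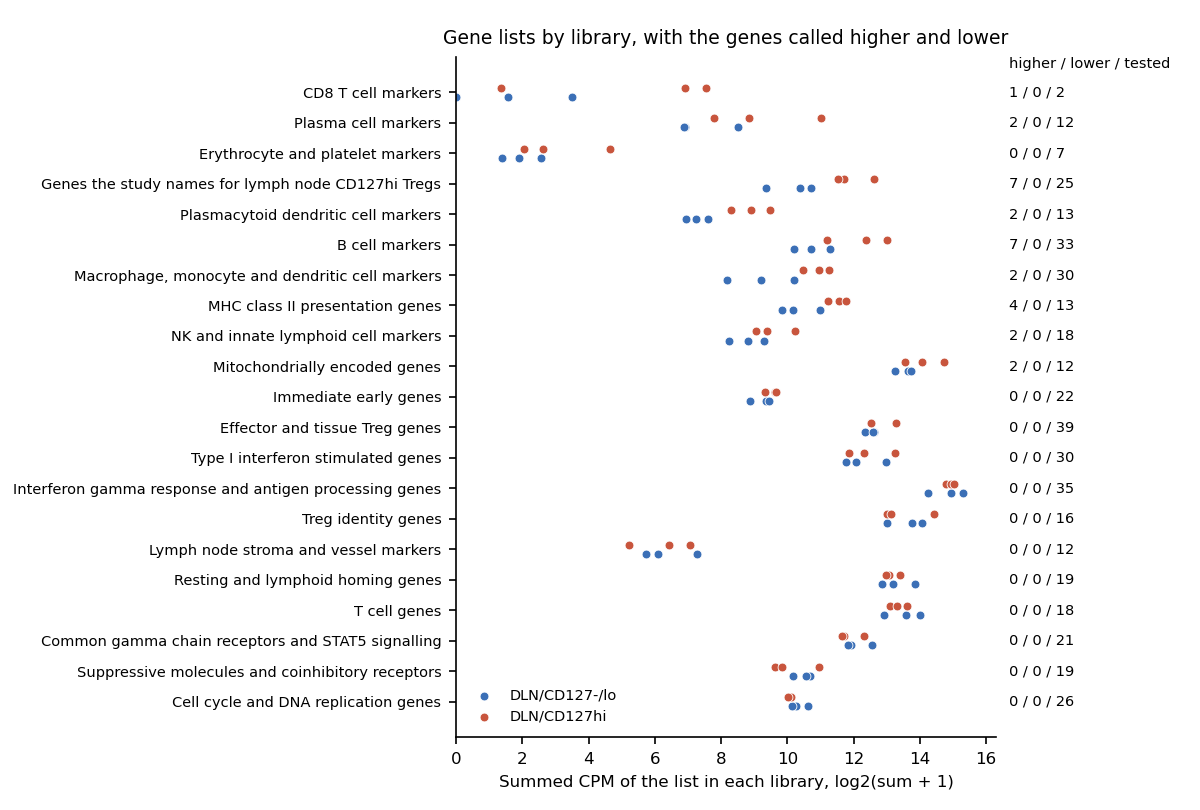
Summed CPM of each gene list in each DLN/CD127-/lo (blue) and DLN/CD127hi (red) library, as log2(sum + 1) (x axis), with the numbers of DEGs higher and lower and of genes tested at the right, ordered by the ratio of means. The sums of MHC class II genes, macrophage and dendritic cell markers, plasmacytoid dendritic cell markers, cell cycle genes and the genes taken from the study do not overlap, while those of Treg and T cell genes do, and no list holds a lower DEG.

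No gene of the T cell and Treg identity lists passed the test. Of 18 T cell genes none was a DEG (median log2 fold change -0.13), with Cd3e, a chain of the T cell receptor complex, at 241, 203 and 348 CPM in DLN/CD127-/lo and 220.0, 247 and 255 CPM in DLN/CD127hi Tregs. Of 16 Treg identity genes none was a DEG either. Il2ra, which encodes CD25, was at 412, 401 and 539 CPM and 336, 301 and 572 CPM, and Ctla4, the coinhibitory receptor that CTLA4-Fc is built from, was at 767, 702 and 364 CPM and 353, 328 and 970.5 CPM. Ikzf2, the transcription factor Helios, was at 8581, 4315 and 11336 CPM and 5401, 5780 and 17172 CPM, highest in replicate 3 of each subset. The T cell list summed to 12398, 7820 and 16502 CPM in DLN/CD127-/lo and 8832, 10245 and 12524 CPM in DLN/CD127hi Tregs (exact permutation p = 0.7, two-sided) and the Treg identity list to 13810, 8200 and 17332 CPM in DLN/CD127-/lo and 8200, 8881 and 22094 CPM in DLN/CD127hi Tregs (p = 0.9, exact). In 3 of the 16 the libraries did not overlap and were lower in value in DLN/CD127hi Tregs, beside 3.11% of all genes, without passing the test: Izumo1r, the folate receptor 4, at 1026, 473 and 1289 CPM and 172, 448 and 284 CPM (adjusted p = 0.114), Nrp1, a receptor of thymus-derived Tregs, at 492, 414 and 363 CPM and 155, 219.9 and 307 CPM (0.689), and Gpr83 at 57.2, 99.6 and 159 CPM and 35.0, 21.3 and 2.07 CPM (0.384).

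The receptors of IL-7 and IL-2 and their pathway likewise held no DEG. Of 21 common gamma chain and STAT5 genes, 9 had a log2 fold change above 0 and 12 below, with a median of -0.16. Il2rg, the common gamma chain itself, was at 629, 392 and 1236 CPM in DLN/CD127-/lo and 411, 488 and 914 CPM in DLN/CD127hi Tregs (log2 fold change -0.32, SE 0.38, adjusted p = 0.859). Bcl2, a survival gene downstream of IL-7, was at 632, 455 and 1156 CPM and 565, 524 and 937 CPM (adjusted p = 1). Stat5b, a transducer of both cytokines, was at 27.8, 67.7 and 29.4 CPM and 51.6, 61.5 and 239.5 CPM (adjusted p = 0.565), the highest value being that of a single library. In 2 of the 21 the libraries did not overlap and were lower in value in DLN/CD127hi Tregs, beside 3.11% of all genes, and in none were they higher without overlap. Of these, Socs1, which dampens cytokine signalling, was at 30.0, 79.6 and 12.3 CPM and 4.87, 7.09 and 10.4 CPM, and did not pass the test (adjusted p = 0.488). The list summed to 3865, 3637 and 6083 CPM in DLN/CD127-/lo and 3355, 3243 and 5063 CPM in DLN/CD127hi Tregs (exact permutation p = 0.5, two-sided).

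Genes of resting and lymphoid-homing T cells (19 tested, median log2 fold change -0.08) held no DEG. Of the 19, 8 had a log2 fold change above 0 and 11 below, and the libraries did not overlap in 4, namely higher in value for Klf2 and Igfbp4, beside 2.26% of all genes, and lower in value for Ccr9 and Bach2, beside 3.11%. Klf2, a transcription factor of quiescence and egress, was at 66.0, 85.6 and 5.72 CPM in DLN/CD127-/lo and 132, 115 and 137 CPM in DLN/CD127hi Tregs (log2 fold change 1.29, SE 0.56, adjusted p = 0.425). Bach2, a repressor that keeps T cells quiescent, was at 104, 108 and 96.5 CPM and 91.5, 43.3 and 39.4 CPM (log2 fold change -0.82, SE 0.55, adjusted p = 0.695). The sums were 9321, 7429 and 14822 CPM against 8662, 10770 and 7999 CPM in DLN/CD127hi Tregs (exact permutation p = 0.7, two-sided).

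Effector and tissue Treg genes held no DEG among 39, but 28 of them had a log2 fold change above 0 and the median was 0.48. Klrg1, a marker of terminally differentiated effector Tregs, was at 0, 9.96 and 0 CPM in DLN/CD127-/lo and 30.2, 104 and 57.0 CPM in DLN/CD127hi Tregs, without overlap (4.35 on the log2 scale, SE 1.29, adjusted p = 0.102). Ccr6, the receptor of CCL20, did not overlap either, at 1.09, 2.99 and 0 CPM and 94.4, 99.3 and 9.33 CPM (5.65, SE 1.68, adjusted p = 0.103). Id2, a transcriptional regulator of effector lymphocytes, was at 73.6, 279.8 and 368 CPM and 500.3, 524 and 591 CPM (1.16, SE 0.44, adjusted p = 0.288). Gata3, which tissue Tregs depend on, was at 94.3, 89.6 and 27.8 CPM and 182, 189 and 108 CPM (adjusted p = 0.676), and Itgb1, the integrin β1, at 90.5, 162 and 121 CPM and 195, 351 and 494 CPM (adjusted p = 0.238). With Ccr4, 6 of the 39 were higher in value in each DLN/CD127hi than in each DLN/CD127-/lo library, beside 2.26% of all genes, and 1, the transcription factor gene Nfil3, was lower in value without overlap, at 58.9, 20.9 and 63.8 CPM and 0, 0.788 and 2.07 CPM (adjusted p = 0.286), beside 3.11%. None of them passed the test. The smallest adjusted p of the list was that of Anxa2 (0.0626), which was lower in value in DLN/CD127hi Tregs. The sums overlapped, 6292, 5230 and 6204 CPM against 5889, 5870 and 9948 CPM in DLN/CD127hi Tregs (exact permutation p = 0.6, two-sided).

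Suppressive molecules and coinhibitory receptors (19 tested, median log2 fold change -0.32) also held no DEG. Nt5e, the ectoenzyme CD73, was at 332, 156 and 142 CPM in DLN/CD127-/lo and 61.3, 119.8 and 196 CPM in DLN/CD127hi Tregs (adjusted p = 0.761). Il10 was at 52.9, 0 and 35.2 CPM and 1.95, 0 and 151 CPM, with most reads of DLN/CD127hi Tregs in replicate 3, and Ebi3, a subunit of IL-35, was at 0, 13.9 and 0 CPM and 54.5, 13.4 and 0 CPM. The sums were 1636, 1526 and 1148 CPM against 785, 912 and 1984 CPM in DLN/CD127hi Tregs (exact permutation p = 0.7, two-sided).

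Interferon-γ response and antigen processing genes (35 tested, median log2 fold change 0.06, sums 31582, 19578 and 40776 CPM against 28257, 31203 and 33381 CPM in DLN/CD127hi Tregs, exact permutation p = 1, two-sided) and type I interferon genes (30 tested, median 0.36, sums 4355, 3502 and 8064 CPM against 5059, 9769 and 3688 CPM in DLN/CD127hi Tregs, exact p = 0.6) held no DEG. H2-K1, a classical MHC class I gene, was at 3117, 2840 and 3469 CPM in DLN/CD127-/lo and 3568, 3975 and 4295 CPM in DLN/CD127hi Tregs (log2 fold change 0.33, SE 0.19, adjusted p = 0.659). Immediate early genes (22 tested, sums 467, 661 and 698 CPM against 641, 791 and 815 CPM in DLN/CD127hi Tregs, exact p = 0.3) and cell cycle genes (26 tested, sums 1234, 1129 and 1588 CPM against 1112, 1095 and 1042 CPM in DLN/CD127hi Tregs, exact p = 0.1, all DLN/CD127hi libraries below all DLN/CD127-/lo) held no DEG.

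Mitochondrially encoded genes gave 2 higher DEGs among 12 tested, beside 0.221% of all genes, and all 12 had a log2 fold change above 0 (median 0.69). The likelihood ratio test called neither. Both are subunits of respiratory complex I. The transcript mt-Nd4 was at 949.5, 778 and 709 CPM in DLN/CD127-/lo and 1414, 2446 and 1781 CPM in DLN/CD127hi Tregs (1.21 on the log2 scale, SE 0.24, adjusted p = 0.00151). The transcript mt-Nd2 was at 989.9, 767 and 989 CPM and 1260, 2918 and 1080 CPM (0.94, SE 0.24, adjusted p = 0.0394), and lost its call without DLN/CD127hi replicate 2 (0.746, log2 fold change 0.40) or DLN/CD127-/lo replicate 2 (0.166). With the likelihood ratio test and DESeq2 the adjusted p was 0.352 and 0.0138 for mt-Nd4 and 0.586 and 0.106 for mt-Nd2. The sums of the list overlapped, 12772, 9693 and 13494 CPM against 12076, 27002 and 17037 CPM in DLN/CD127hi Tregs, with the highest in DLN/CD127hi replicate 2 (exact permutation p = 0.3, two-sided).

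Of 25 genes taken from those the study names for lymph node CD127hi Tregs, not a full list of them, 7 were DEGs, all higher, beside 0.221% of all genes: H2-Ab1, H2-Eb1, Ly6d, Plac8, Igkv8-30, Mef2c and Serpinb1a. The study names such genes from comparisons with either naive or CD127-/lo Tregs, and includes those with only a tendency toward higher expression. A member not called here need not conflict with the study. This list was chosen on these same samples and is not independent evidence of its direction. Its 25 members all had a log2 fold change above 0, with a median of 2.32. In 10 of the 25 the libraries did not overlap and were higher in value in DLN/CD127hi Tregs, beside 2.26% of all genes. Serpinb1a, an inhibitor of neutrophil proteases, was at 0.545, 5.97 and 0 CPM in DLN/CD127-/lo and 269.6, 14.2 and 7.26 CPM in DLN/CD127hi Tregs (adjusted p = 0.0161), and was not called without DLN/CD127hi replicate 1 (adjusted p = 0.645) or DLN/CD127-/lo replicates 1 or 3 (0.0553 and 0.0533). Kctd12, Anxa1, Adam8, Cxcr6 and Ctla2a were among the 18 that did not pass, with overlapping libraries, such as Anxa1 at 1.64, 191 and 0 CPM and 4.87, 0.788 and 234 CPM. The summed list was 655, 1692 and 1321 CPM in DLN/CD127-/lo and 6348, 3364 and 2932 CPM in DLN/CD127hi Tregs (exact permutation p = 0.1, two-sided).

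Beyond the lists, the 10 higher DEGs with the largest changes whose libraries did not overlap had varied roles. Ddit3, the stress-induced transcription factor CHOP, had no read in DLN/CD127-/lo Tregs and was at 70.1, 2.36 and 56.0 CPM in DLN/CD127hi Tregs, at least 58.0-fold higher (adjusted p = 0.00226), although DLN/naive Tregs had it at a mean of 49.4 CPM. Nfe2l2, the oxidative stress regulator NRF2, was at 1.09, 0 and 0 CPM and 65.2, 22.9 and 133 CPM (ratio of counts 139.5, 95% exact interval 38.2 to 1159, adjusted p = 0.000218). Both stayed called whichever library was left out, with a log2 fold change of Nfe2l2 from 6.45 to 10.85, the latter without DLN/CD127-/lo replicate 1. The others of the 10 were Klrb1f, a C-type lectin receptor of the NK complex (0.545, 0 and 0 CPM and 81.8, 4.73 and 159 CPM), Cstf2, a factor of mRNA 3′ end cleavage (0.545, 0 and 0 and 20.4, 63.0 and 49.8 CPM), Mut, the mitochondrial methylmalonyl-CoA mutase (0, 0 and 0.818 and 2.92, 59.1 and 88.1 CPM), Rrp36, of ribosomal RNA processing (0, 0 and 0 and 13.6, 9.46 and 76.7 CPM), and the zinc finger gene Zfp958 (0.545, 0 and 0.818 and 110.0, 40.2 and 27.0 CPM), beside Ly6d, Fcmr and Tyrobp. Of these 5, Zfp958 stayed called whichever library was left out. The calls of Cstf2, Mut, Klrb1f and Rrp36 were lost in 1, 2, 3 and 4 of the 6 leave-outs, among them that of DLN/CD127-/lo replicate 2 in each (adjusted p = 0.051, 0.0653, 0.13 and 0.106). The others were DLN/CD127-/lo replicate 1 for Mut (0.0684) and Rrp36 (0.101), DLN/CD127-/lo replicate 3 for Klrb1f (0.0677) and Rrp36 (0.0788), and DLN/CD127hi replicate 3 for the same pair (0.061 and 0.108).

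Among the 50 lower DEGs, Cd40lg had the smallest adjusted p. Cd40lg encodes CD154, the CD40 ligand of activated CD4+ T cells and the target of the MR-1 antibody these mice had received. On the X chromosome (57212143 to 57224042), Cd40lg was at 71.4, 42.8 and 54.0 CPM in DLN/CD127-/lo and at 0.973, 0 and 0 CPM in DLN/CD127hi Tregs, which is 240 reads against 1. All DLN/CD127-/lo libraries were above all DLN/CD127hi libraries, and the ratio of depth-corrected counts was 193 (95% exact interval 34.3 to 7641, counting error only). The log2 fold change was -7.32 (SE 1.07, adjusted p = 3.50e-07), and it was called whichever library was left out, but not in the models of the 9 and the 6 DLN libraries (adjusted p = 0.809 and 0.794). Cd40lg was at 41.2, 78.5 and 31.0 CPM in DLN/naive Tregs, at 91.8, 40.8 and 56.6 CPM in splenic CD127-/lo and at 84.1, 63.7 and 46.9 CPM in splenic CD127hi Tregs of the tolerant mice. The DLN/CD127hi libraries were thus below each of these 12 others. Without DLN/CD127hi replicate 1, which held the single read, the Cd40lg log2 fold change was -10.38.

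Malat1, an abundant nuclear long noncoding RNA on chromosome 19, was the lower gene called in all 3 quasi-likelihood models. Malat1 was at 105854, 66735 and 66976 CPM in DLN/CD127-/lo and 43424, 35712 and 47794 CPM in DLN/CD127hi Tregs, without overlap (log2 fold change -0.92, SE 0.15, adjusted p = 7.72e-06). The likelihood ratio test and DESeq2 did not call it (adjusted p = 0.593 and 0.281). In the spleen the direction was the opposite, with 9609 ± 3797 CPM in CD127-/lo and 19342 ± 3828 CPM in CD127hi Tregs (SD, n = 3), and DLN/naive Tregs had 117117 ± 55597 CPM. Gm10800, chosen after its values were seen because the smaller models called it, was at 8363, 39557 and 522 CPM and 18018, 5424 and 1033 CPM, with overlap (adjusted p = 0.405 in the model of all libraries).

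None of the 50 lower DEGs was in any of the gene lists. Gde1, a glycerophosphodiester phosphodiesterase, was at 91.0, 0.996 and 65.4 CPM in DLN/CD127-/lo Tregs and had no read in DLN/CD127hi Tregs, at least 57.0-fold lower (adjusted p = 0.00716). Hspd1, the mitochondrial chaperonin HSP60, was at 70.9, 19.9 and 41.7 CPM and 0.973, 0 and 0 CPM (adjusted p = 0.00196), and Naa30, the catalytic subunit of an N-terminal acetyltransferase, at 245, 80.6 and 73.6 CPM and 3.89, 2.36 and 1.04 CPM (adjusted p = 1.20e-05). All 3 were called whichever library was left out. The same holds for Mlx, a partner of glucose-sensing transcription factors (119, 0.996 and 78.5 CPM and 0.973, 0 and 0 CPM), Atxn10 (156, 54.8 and 8.18 and 0, 0.788 and 1.04 CPM), Zc3h8 (33.2, 85.6 and 226 and 0, 1.58 and 0 CPM) and 3110040N11Rik (96.5, 0.996 and 109 and 0.973, 0 and 0 CPM). Gsr, glutathione reductase, was at 2.73, 142 and 24.5 CPM and 0.973, 0.788 and 0 CPM and lost its call without DLN/CD127-/lo replicate 2 (adjusted p = 0.235) or DLN/CD127hi replicate 3 (0.0568). Samd8 and Tmem185b, the others of the 10 with the largest lower changes, lost theirs in 3 and 2 of the 6 leave-outs: both without DLN/CD127hi replicate 1 (adjusted p = 0.137 and 0.102) or 3 (0.103 and 0.0678), and Samd8 also without DLN/CD127-/lo replicate 1 (0.0954). Fubp1, a regulator of Myc named here after its values were seen as one of the more highly expressed lower DEGs, was at 471, 617 and 334 CPM and 154, 130.0 and 156 CPM (log2 fold change -1.70, SE 0.42, adjusted p = 0.0297), and the likelihood ratio test (0.158) and 3 leave-outs ended its call (adjusted p = 0.137 without DLN/CD127-/lo replicate 2, and 0.0594 and 0.0735 without DLN/CD127hi replicates 1 and 2).

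The DLN/naive Tregs were set beside both subsets as a description. For 54 of the 56 higher DEGs the naive mean was below the DLN/CD127hi mean, and for 10 it was also below the DLN/CD127-/lo mean. For all 50 lower DEGs the naive mean was above the DLN/CD127hi mean, and for 19 it was also above the DLN/CD127-/lo mean. The DEGs were selected for a difference in these DLN/CD127hi libraries, and 20 of the 50 lower ones had at most 3 counts there. That the naive mean lay on the other side of the DLN/CD127hi mean thus follows largely from the selection. The naive libraries entered the model but not the contrast. They came from mice that differ from the tolerant mice in sex as well as in graft and treatment, which cannot be told apart.

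The difference between CD127hi and CD127-/lo Tregs was then compared between DLN and spleen, for which 3 splenic libraries of each subset from tolerant mice were used. The interaction, the log2 fold change of the DLN minus that of the spleen, passed an adjusted p of 0.05 for 30 genes (0.118%), 18 higher and 12 lower in the DLN, and 1983 genes had an unadjusted p under 0.05. Of these genes 19 were also DEGs of the DLN. Ly6d differed by 10.76 (SE 1.44, adjusted p = 1.11e-08), Igkc by 4.85 (2.51e-11), Tyrobp by 9.64 (0.00293), Cd40lg by -7.36 (0.000123) and Malat1 by -1.93 (3.71e-13). These tests use the same pooled spread as the 106 DEGs, so that any single one may likewise be a false call. For Iglc2, Jchain and the class II genes the interaction did not pass, with adjusted p = 0.478 for Iglc2, 0.38 for Jchain, 0.102 for H2-Ab1 and 0.154 for Cd74. Of the 56 higher DEGs of the DLN 26 were also higher in value in splenic CD127hi Tregs, beside 50.9% of all genes, and of the 50 lower DEGs 29 were also lower, beside 32.1%. All DLN libraries were run on one sequencer and all splenic libraries on another, so the interaction cannot be told apart from a difference between sequencers.

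**Figure D5:**
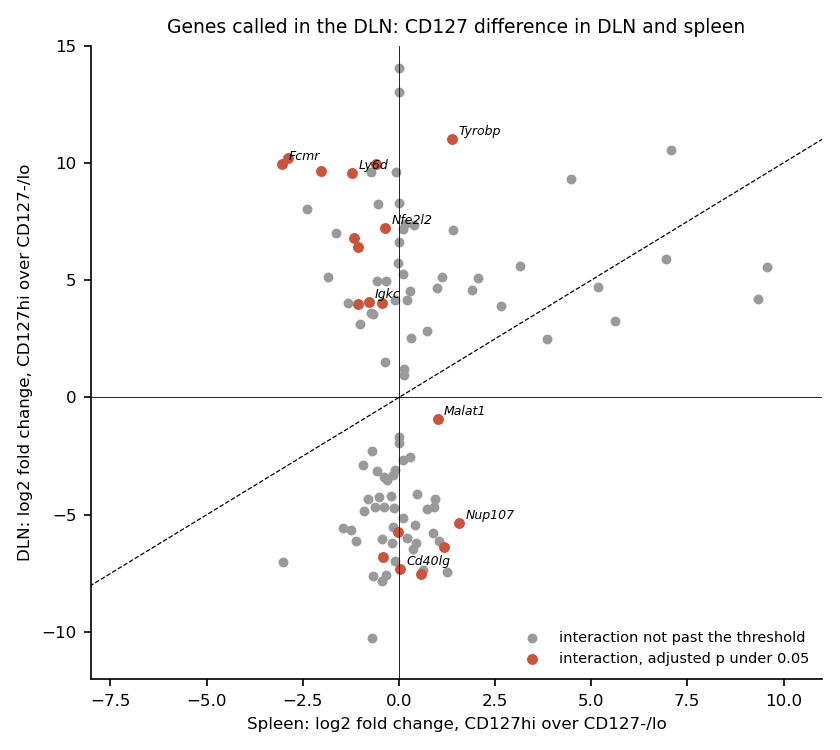
For the 106 DEGs of the DLN, the log2 fold change of CD127hi over CD127-/lo Tregs in the DLN (y axis) against that in the spleen (x axis), with the line of equal change dashed. The 19 genes whose difference between the tissues passed an adjusted p of 0.05 are red, and most genes lie close to 0 on the splenic axis.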

How the data were processed

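RNA-Seq of sorted Tregs was analysed in 33 libraries of 11 groups, of which 6 were compared here. According to the methods and the submitters' processing notes, the authors used Trim Galore for trimming and STAR for alignment (mm10 plus an EGFP sequence), and deposited raw counts per gene from a kit that does not mark strand. The column of both strands together was used, and the 4 totals of reads without a gene were left out. These reads could not be assigned to a strand, so that a gene and an overlapping antisense gene cannot be told apart. Reads outside gene models were 27.1% to 49.0% of the 6 libraries.

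Counts were tested in R 4.3.3 with edgeR 4.0.16 (TMM, 1 mean per group, quasi-likelihood test, Benjamini-Hochberg adjustment, adjusted p under 0.05) on the 25347 genes that reached 1 CPM in any library. Log2 fold changes use edgeR's default prior. The study's likelihood ratio test, DESeq2 1.42.0, RLE scaling, other filters, models of fewer libraries, a replicate block and leave-outs were alternatives. Summed lists were compared by exact permutation tests (scipy 1.17.1). On simulated data with the spread of the 6 libraries the model of all libraries called many unchanged genes, and with 1 spread for all libraries hardly any. Library depth limits detection to about 3 counts. The libraries, gene lists and the rule for named genes (sort markers, list members, the 10 largest non-overlapping DEGs per direction, genes called in all 3 models or in the interaction) were chosen with earlier results of these data known. Most list members enter only counts and sums, and some genes are not reported here. The replicate numbers do not pair the samples by any label.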

Additional observations from a re-analysis of the deposited data

Results flagged for a closer look

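The difference between CD127hi and CD127-/lo Tregs was tested for a difference between DLN and spleen, and this passed an adjusted p of 0.05 (edgeR quasi-likelihood test with Benjamini-Hochberg adjustment) for 30 genes. Of these, 19 were also DEGs in the DLN, and the values below are the log2 fold change in the DLN minus that in the spleen. Igkc (4.85), Fcmr (12.97), Ly6d (10.76) and Plac8 (5.05) are B lineage or plasmacytoid dendritic cell markers, and Tyrobp (9.64) is a myeloid and NK cell adaptor. In the spleen the first 4 had negative log2 fold changes, -0.78, -3.03, -1.21 and -1.07. These splenic changes were not tested on their own, and the splenic libraries overlapped for Igkc, Ly6d and Plac8. Ly6d was at 7.35, 0 and 0 CPM in splenic CD127-/lo and 0, 0 and 3.18 CPM in splenic CD127hi Tregs. Fcmr averaged 10.7 ± 13.7 CPM and 1.20 ± 2.08 CPM in these subsets (SD). Unlike these 4, the B cell marker Ms4a1, not a DEG of the DLN, had a negative difference of -8.78 (adjusted p = 1.09e-07). Its splenic log2 fold change was 7.56, from 0.0839 ± 0.145 CPM in CD127-/lo to 25.0 ± 34.3 CPM in CD127hi Tregs (SD). Positive differences were also those of Ddit3 (10.56), Nfe2l2 (7.57), Ifitm3 (11.66), an interferon-induced antiviral gene, Tagln2 (4.47), Srd5a3 (7.48) and the zinc finger genes Zfp422 (13.09) and Zfp958 (7.97). For Ddit3, Nfe2l2, Tagln2, Srd5a3 and Zfp958 the DLN/CD127-/lo mean lay below the DLN/naive mean and both splenic means. Tagln2, for example, averaged 5.89 CPM there and 39.3 CPM in DLN/naive Tregs. Ifitm3 and Zfp422 had no read in DLN/naive Tregs either.

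The interaction was negative for Cd40lg (-7.36), Malat1 (-1.93), Zc3h8 (-8.09), Ap3m1 (-7.55), Atxn10 (-6.39), Nup107 (-6.93) and Naa30 (-5.72). Of the 19 genes, Ifitm3 and Zfp422 were called in the DLN with overlapping libraries. Zfp422 was at 0, 84.3 and 67.4 CPM in DLN/CD127hi Tregs and had no read in DLN/CD127-/lo Tregs. The call of Ifitm3 was lost without any of the DLN/CD127-/lo replicates (adjusted p = 0.0673, 0.13 and 0.0515) and with DESeq2 (0.055). Those of Plac8 and Nup107 were each lost without 1 library, DLN/CD127-/lo replicate 2 (0.0883) and DLN/CD127hi replicate 3 (0.0726), and that of Malat1 with the likelihood ratio test and DESeq2. The splenic log2 fold change of Malat1 was 1.01. The DLN libraries were run on another sequencer than the splenic ones and had a higher common dispersion (1.47 over 9 DLN against 0.785 over 9 splenic Treg libraries), and the part of either in these differences was not tested.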

How the results depend on the processing

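The count of 106 DEGs was 173 with the likelihood ratio test, 730 with DESeq2, 68 with the stricter filter, 9 in the model of the DLN libraries, 10 in that of the 6 compared, 160 with a replicate block and 8 with the replicate block in the 6 libraries. It ranged from 115 to 232 when 1 library was left out, with 232 without DLN/CD127hi replicate 2 and 176 without DLN/CD127-/lo replicate 3, and without DLN/CD127hi replicate 1 the split turned to 48 higher and 93 lower. RLE scaling (109) and no filter (142) stayed within 1.5 times. The interaction count of 30 was 70 with the likelihood ratio test, 294 with DESeq2, 54 without a filter and 11 with the stricter one, and 17 to 137 when 1 of the 12 libraries was left out (17 without splenic CD127-/lo replicate 1, 78 and 137 without DLN/CD127-/lo replicates 1 and 3, and 71, 105 and 47 without DLN/CD127hi replicates 1, 2 and 3). Fewer libraries leave fewer degrees of freedom and another estimate of the spread, and the cause of the other changes was not tested. The replicate numbers did not pair the libraries (correlations of same-numbered deviations from -0.01 to 0.05, and 2 of 6 libraries closest to their own number).

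The log2 ratio of summed CPM reversed for Treg identity genes from -0.01 to 0.10 without TMM factors. With 1 library left out it ranged from -0.62 to 0.25 for Treg identity, -0.46 to 0.0513 for common gamma chain and STAT5, -0.40 to 0.13 for resting, -0.00719 to 0.42 for effector, -0.76 to 0.0113 for suppressive, -0.23 to 0.27 for interferon-γ, -0.28 to 0.65 for type I interferon, -0.46 to 0.0594 for T cell and -0.58 to 0.50 for stroma genes. The other 12 lists kept their direction, but leaving out 1 library moved the log2 ratio of myeloid markers from 1.51 to 2.16 (DLN/CD127-/lo replicate 2), of plasma cell markers from 2.19 to 2.95 (DLN/CD127-/lo replicate 3) or 0.76 (DLN/CD127hi replicate 1), of CD8 markers from 4.64 to 6.69 (DLN/CD127-/lo replicate 1) or 3.89 (DLN/CD127hi replicate 1) and of erythrocyte and platelet markers from 1.81 to 0.42 (DLN/CD127hi replicate 1). Among 51 named genes and 764 alternative values, 528 kept direction and call, 232 lost the call and 4 reversed, of which none belonged to a called gene. These were Il7r (-0.13 without DLN/CD127-/lo replicate 1, range -0.13 to 0.69) and EGFP (0.70 with the replicate block, 0.83 with it in the 6 libraries, and -0.92 to 1.54 with 1 library left out, 1.54 without DLN/CD127-/lo replicate 3). Depth limited genes with at most 3 counts in a subset, for which fitted fold changes depend on the prior count.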
